A study of Mus musculus with 6 samples.

Results

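The genes of the urea cycle and of amino acid breakdown were examined in CREB-H knockout livers to which the active form of the factor had been returned. CREB-H (gene Creb3l3) is a liver transcription factor of the CREB family that is held in the endoplasmic reticulum until it is cut free. The members were 59 listed enzymes and transporters, taken by gene symbol. Of these, 55 had a probe set annotated to that gene alone, among 22180 such genes on the array, and the brightest probe set over the 6 arrays was used for each. No filter on low values was applied, so all 55 entered the test. Gls2, Sds and Sdsl had no probe set of their own, and Gstz1 was named only in a probe set shared with another gene, so these 4 were not analysed here, and the breakdown of serine and threonine by Sds and Sdsl went unmeasured.

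All 6 mice carried the knockout allele Creb3l3tm1.1Sad/J, were 8 weeks old and ate a normal diet. The CREB-H group (3 mice) received a liver-directed adeno-associated virus (AAV) with CREB-H-ΔTC, the part of CREB-H that is active in the nucleus. The GFP group (3 mice) received the same kind of virus with green fluorescent protein, so the deletion, the virus and the injection were common to both groups. Livers were taken 2 weeks later, and total RNA from each was hybridised to 1 array. The comparison therefore shows the response to the active form supplied by a vector in livers without the gene of their own, and which promoter drives the vector is not stated in the labels. Values are log2 signals, on which a difference of 1 is a 2-fold difference. Signals of different probe sets are not set against each other.

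The urea cycle turns the ammonia released by amino acid breakdown into urea, and it runs at its highest rate in the periportal hepatocytes of the liver. The carbon skeletons of the amino acids enter glucose synthesis, ketone bodies or the citric acid cycle through a separate chain of enzymes for each amino acid. Many of these genes are known to be induced in fasting by glucagon and glucocorticoids. The liver also makes NAD from tryptophan through the kynurenine pathway.

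Markers of the labelled tissue were bright. The 9 measured hepatocyte markers had a mean signal of 12.88 to 12.98 in the CREB-H arrays and 12.90 to 12.95 in the GFP arrays. Markers of kidney, small intestine and pancreas averaged 4.01 to 5.01 in the CREB-H arrays and 4.02 to 5.16 in the GFP arrays, where the array medians were 4.98 to 5.01. These are signals of different probe sets, so the values describe the arrays and do not rank the genes. Creb3l3 itself read 6.73, 7.25 and 7.58 in CREB-H replicates 1 to 3, against 6.55, 5.93 and 6.40 in GFP replicates 1 to 3, in the direction of the labels but without passing the test (adjusted p = 0.647). Replicate 3 of each group carried Y-linked signal (mean 7.67 in CREB-H and 7.83 in GFP, against 3.15 to 3.39 in the other 4 arrays). GFP replicate 3 was also low in many genes that respond to glucocorticoids and fasting, in macrophage markers and in several members, as described below. In whole liver RNA, fewer hepatocytes and less RNA per hepatocyte cannot be told apart.

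No member passed the test. With limma and Benjamini-Hochberg adjustment over all 41345 probe sets, 0 of 55 members had an adjusted p under 0.05, and the lowest adjusted p among them was 0.613. In all, 2 probe sets passed, which is 0.00484%. At an unadjusted p under 0.05 there were 5 members, all lower with CREB-H, which is 9.09% of 55, against 3.97% of all probe sets lower and 2.93% higher at the same threshold. In 7 members (12.7%) all CREB-H arrays lay below all GFP arrays, against 7.1% of all probe sets, and in 0 members did they lie above, against 5.23%. In either direction the share was thus 12.7% of the members and 12.3% of all probe sets. The median log2 fold change of the members was -0.04, against -0.01 over all probe sets, with 31 of 55 lower (56.4%, against 53.7% of all probe sets). Most members differed little: 36 had a log2 fold change under 0.2 in size, and the 95% interval lay within 1 on either side of 0 in 47. Of the 8 that differed by at least 0.5, 7 were lower (Csad, Aadat, Kynu, Ahcy, Kmo, Slc25a15 and Prodh2) and 1, Agxt, was higher. The differences below are therefore described with their errors, and none is a call.

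**Figure D1:**
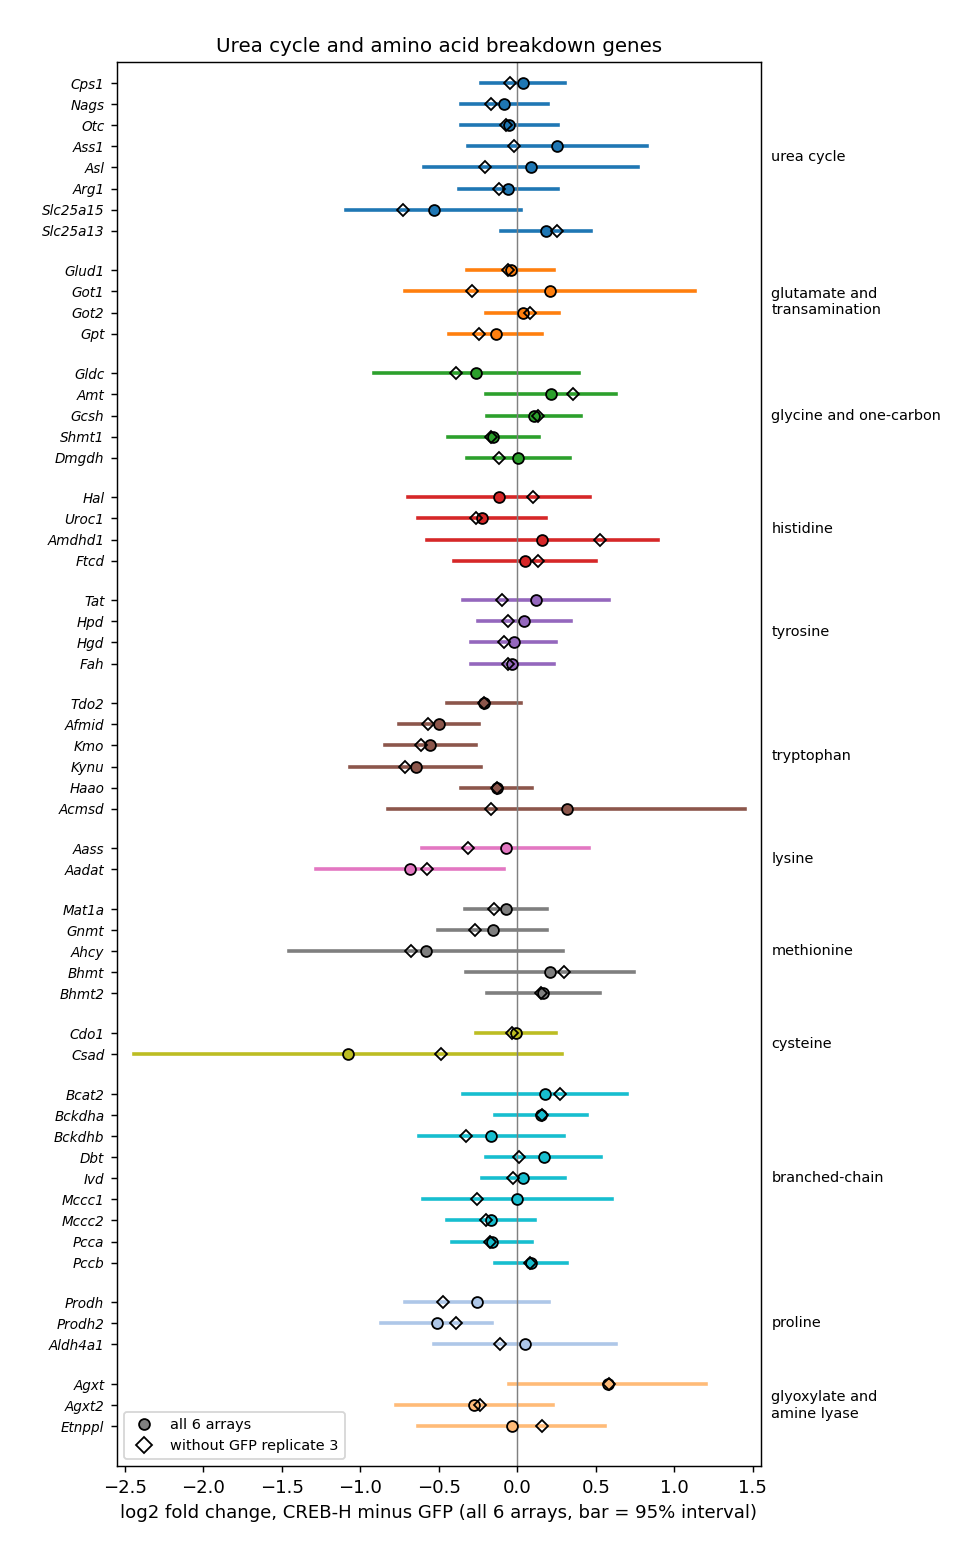
Log2 fold change (CREB-H minus GFP, x axis) of the 55 measured members, grouped by the amino acid they act on. Circles and bars give the fit on all 6 arrays with its 95% interval, and diamonds the fit without GFP replicate 3. The tryptophan genes Afmid, Kmo and Kynu lie left of 0 with their intervals, as do Aadat and Prodh2, while most other circles lie close to 0.

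The tryptophan genes were the amino acid group with the most members lower without overlap. Of the 6 measured enzymes of this pathway, 5 had all CREB-H arrays below all GFP arrays, and the 6th, Acmsd, overlapped. The share lower without overlap was 7.1% over all probe sets, and these 5 are among the 7 such members counted above. The group was picked out of 12 by this same count, so setting it against that share is no test. Among the 49 members outside the group, 2 were lower without overlap (4.08%). After quantile normalization or median centring of the arrays the count was 4, with Haao just overlapping. The group's median log2 fold change was -0.35, and the medians of the fits that left out 1 array each lay between -0.39 and -0.32. The pathway opens the indole ring of tryptophan to make N-formylkynurenine and then kynurenine, and its later steps lead either to NAD or to complete oxidation. The 300 bases around the start (250 before, 50 after) are shown for Tdo2, Afmid, Kmo and Haao, because these genes lie in 1 pathway and were lower without overlap. They come from a table of RefSeq sequences, build GRCm38.p6, in which 47 of the 55 members were matched. The stretch of Kynu was not analysed here. Each is written 5′ to 3′ on the strand of the gene. The stretches were searched for TGACG, the core of the cAMP response element (CRE) that factors of the CREB family bind, and for AGGTCA, a core motif of nuclear receptors, on both strands (CGTCA and TGACCT in reverse), and capitals mark the matches.
Tdo2 (chr3:81975679-81975978, minus strand): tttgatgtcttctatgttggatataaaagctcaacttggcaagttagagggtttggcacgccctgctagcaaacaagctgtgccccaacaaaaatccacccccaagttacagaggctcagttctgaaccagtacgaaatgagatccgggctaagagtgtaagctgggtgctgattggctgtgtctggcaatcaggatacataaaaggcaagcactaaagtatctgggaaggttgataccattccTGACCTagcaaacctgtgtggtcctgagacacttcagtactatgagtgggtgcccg
Afmid (chr11:117825669-117825968, plus strand): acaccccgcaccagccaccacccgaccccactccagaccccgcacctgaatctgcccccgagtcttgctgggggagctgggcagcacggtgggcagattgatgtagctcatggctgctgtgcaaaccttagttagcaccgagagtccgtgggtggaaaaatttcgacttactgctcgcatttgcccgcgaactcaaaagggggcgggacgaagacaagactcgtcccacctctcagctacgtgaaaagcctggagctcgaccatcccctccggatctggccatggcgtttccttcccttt
Kmo (chr1:175631943-175632242, plus strand): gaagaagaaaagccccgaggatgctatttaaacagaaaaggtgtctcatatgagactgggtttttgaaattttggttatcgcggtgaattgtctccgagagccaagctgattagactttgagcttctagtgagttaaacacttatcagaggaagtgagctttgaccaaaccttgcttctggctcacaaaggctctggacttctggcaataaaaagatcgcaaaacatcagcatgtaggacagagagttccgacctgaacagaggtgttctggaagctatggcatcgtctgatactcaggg
Haao (chr17:83846741-83847040, minus strand): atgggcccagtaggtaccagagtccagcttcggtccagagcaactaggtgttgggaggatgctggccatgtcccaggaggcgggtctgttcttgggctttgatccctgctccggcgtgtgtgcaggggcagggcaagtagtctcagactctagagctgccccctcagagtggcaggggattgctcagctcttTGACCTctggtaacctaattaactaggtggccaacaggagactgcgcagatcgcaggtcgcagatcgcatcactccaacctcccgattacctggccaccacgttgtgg
In these 4 stretches TGACG had no match, and AGGTCA had 1 each in Tdo2 and Haao. The full CRE, TGACGTCA, and the related TGACGTGG were searched on both strands too, and were in 0 of the 54 stretches of the 47 members. They were in 1.79% and 0.676% of all 32851 such stretches of the mouse genome. With shares this low, 0 of 54 is near the background. TGACG, which is part of both longer motifs, was in 8 of the 54 (14.8%), against 20.8% of all. AGGTCA, searched after the sequences had been read, was in 20 of the 54 (37.0%), against 16.3% of all. Since this motif was picked after reading some of the stretches in which it was counted, the difference is no test. A match is a run of letters, not a bound site.

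Tdo2 encodes tryptophan 2,3-dioxygenase, the liver enzyme that opens the ring and sets the rate of the pathway. It read 12.63, 12.81 and 12.74 in CREB-H replicates 1 to 3, against 12.99, 12.88 and 12.93 in GFP replicates 1 to 3. The CREB-H arrays all lay below the GFP arrays, by a narrow margin, and the log2 fold change was -0.21 (SE 0.10, adjusted p = 0.768). Afmid encodes the formamidase that yields kynurenine. It read 9.71, 9.79 and 9.80 in the CREB-H arrays, against 10.27, 10.39 and 10.13 in the GFP arrays. The 3 CREB-H arrays were within 0.1 of each other, and the log2 fold change of -0.50 (SE 0.11, adjusted p = 0.613) corresponds to 1.41-fold lower with a 95% interval of 1.18 to 1.69.

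Kmo, kynurenine 3-monooxygenase, hydroxylates kynurenine on the way to NAD. It read 10.87, 10.58 and 10.62 in the CREB-H arrays, against 11.32, 11.28 and 11.13 in the GFP arrays. It was 1.47-fold lower (95% interval 1.20 to 1.79; log2 fold change -0.55, SE 0.12, adjusted p = 0.613). Kynu, kynureninase, cleaves the product of Kmo. Its signal was 9.60, 10.01 and 10.21 in the CREB-H arrays, against 10.56, 10.75 and 10.46 in the GFP arrays. CREB-H replicate 1 was the lowest and the groups did not overlap, with a log2 fold change of -0.65 (SE 0.18, adjusted p = 0.636).

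Haao oxidises 3-hydroxyanthranilate, the last enzyme step before quinolinic acid forms on the branch to NAD. It read 10.22, 10.33 and 10.21 in the CREB-H arrays, against 10.41, 10.36 and 10.39 in the GFP arrays. The gap between the groups was small, and the log2 fold change was -0.13 (SE 0.09, adjusted p = 0.853). An exact permutation test, taken on both sides, gave p = 0.1 in each of the 5 genes, its floor with 3 arrays a group. Groups of this size that do not overlap always give that value, so it adds nothing to the lack of overlap. Acmsd diverts the intermediate away from NAD towards oxidation. It read 8.53, 9.04 and 7.91 in the CREB-H arrays, against 8.33, 8.99 and 7.20 in the GFP arrays. The groups overlapped widely, replicate 3 was the lowest in both, and the log2 fold change of 0.32 (SE 0.48, adjusted p = 0.934) was -0.17 without GFP replicate 3.

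**Figure D2:**
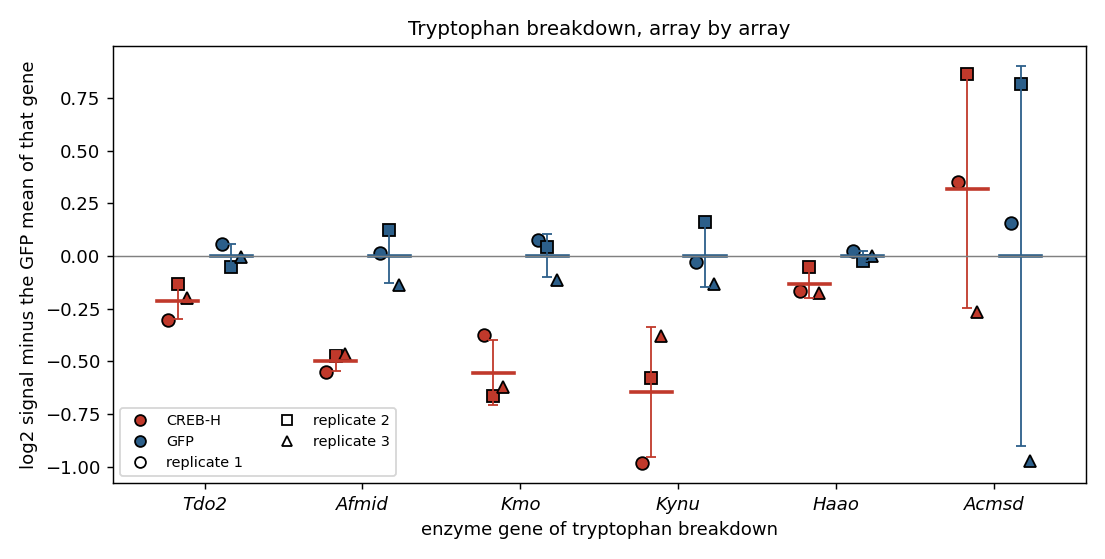
Log2 signal of the 6 tryptophan breakdown genes minus the GFP mean of each gene (y axis), for the CREB-H arrays (red, left) and the GFP arrays (blue, right). Symbols give the replicate number, lines the group mean and bars the SD (n = 3). In Tdo2, Afmid, Kmo, Kynu and Haao every CREB-H point lies below every GFP point, and in Acmsd the groups overlap.

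The tryptophan differences were as large without GFP replicate 3. In that fit the log2 fold changes of Afmid, Kmo and Kynu were -0.57, -0.61 and -0.71. Among the 4 arrays without Y-linked signal they were -0.58, -0.58 and -0.85, and between the 2 arrays with it they were -0.33, -0.51 and -0.25. Across the fits that left out 1 array, Afmid ran from -0.57 to -0.44, Kmo from -0.64 to -0.50 and Kynu from -0.78 to -0.48. The adjusted p ran from 0.393 to 0.851 over the alternatives for these 3 genes. Kmo and Kynu are also expressed in macrophages. Of 10 Kupffer cell and macrophage markers, all 10 had a higher mean with CREB-H (median log2 fold change 0.41, 0 with an unadjusted p under 0.05; 0.16 with 7 of 10 higher without GFP replicate 3), and the mean of the list was 8.07 to 8.95 in the CREB-H arrays and 7.54 to 8.75 in the GFP arrays, which overlapped. Their part in the values of Kmo and Kynu was not tested.

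Aadat, which transaminates both kynurenine and the lysine product 2-aminoadipate, was grouped with lysine. It read 11.44, 10.65 and 10.84 in the CREB-H arrays, against 11.83, 11.27 and 11.87 in the GFP arrays. CREB-H replicate 1 lay above GFP replicate 2, so the groups overlapped, and the gene was 1.61-fold lower with a 95% interval of 1.06 to 2.43 (log2 fold change -0.68, SE 0.25, adjusted p = 0.693). Without GFP replicate 3 the log2 fold change was -0.58. Aass, which starts lysine breakdown in the mitochondrion, differed by -0.07 (SE 0.22). The wider pathway list held 3 other tryptophan enzymes. Ido2, a dioxygenase for the same step as Tdo2, differed by -0.50 (SE 0.24), with GFP replicate 3 as its highest array, and by -0.30 without it. The kynurenine aminotransferase genes Kyat1 and Kyat3 differed by -0.12 (SE 0.42) and 0.12 (SE 0.29).

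The core of the urea cycle stood close to level. Of the 8 measured members 4 were higher and 4 lower, none without overlap and 0 with an unadjusted p under 0.05, with a median log2 fold change of -0.01. Cps1, carbamoyl phosphate synthetase, fixes ammonia at the entry of the cycle. It read 13.18, 13.20 and 13.28 in the CREB-H arrays, against 13.28, 13.25 and 13.01 in the GFP arrays. The groups overlapped almost fully, with GFP replicate 3 as the lowest array, and the log2 fold change was 0.04 with a 95% interval of -0.23 to 0.31. Nags, which makes the N-acetylglutamate that Cps1 needs, differed by -0.08 (95% interval -0.36 to 0.20), and its 2nd probe set by -0.07. Otc, which joins carbamoyl phosphate to ornithine, read 12.31, 12.28 and 11.94 in the CREB-H arrays, against 12.28, 12.22 and 12.18 in the GFP arrays. CREB-H replicate 3 was the low array, and the log2 fold change was -0.05 (95% interval -0.36 to 0.26). Arg1, the arginase that releases urea, differed by -0.06 (95% interval -0.37 to 0.26). For these 4 genes the intervals thus leave out differences as large as 0.5 on the log2 scale.

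Ass1 and Asl, which build and split argininosuccinate, had wider errors, and GFP replicate 3 stood apart in both. Ass1 read 6.69, 6.94 and 6.89 in the CREB-H arrays, against 6.76, 6.96 and 6.04 in the GFP arrays. Its signal was dim, where the array medians were 4.98 to 5.01. Asl read 10.92, 11.08 and 11.60 in the CREB-H arrays, against 11.38, 11.43 and 10.53 in the GFP arrays. In both genes GFP replicate 3 was the lowest of the 6 arrays. The log2 fold changes of 0.26 (SE 0.24) and 0.09 (SE 0.29) were -0.02 and -0.20 without it.

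Of the 2 mitochondrial carriers, Slc25a15, which brings ornithine into the mitochondrion, was the urea cycle member with the largest difference. It read 10.63, 11.18 and 10.51 in the CREB-H arrays, against 11.55, 11.45 and 10.92 in the GFP arrays. CREB-H replicate 2 lay above GFP replicate 3, so the groups overlapped, and the log2 fold change was -0.53 (SE 0.23, adjusted p = 0.743) and -0.72 without GFP replicate 3. Slc25a13, the aspartate-glutamate carrier that supplies aspartate for argininosuccinate, differed by 0.18 (SE 0.12). Its counterpart Slc25a12, from the list of nitrogen transport genes, was higher in all 3 CREB-H arrays (8.70, 8.60 and 9.07) than in the GFP arrays (8.44, 8.43 and 8.55), with a log2 fold change of 0.32 (SE 0.14, adjusted p = 0.751).

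Ammonia and nitrogen also pass through glutamate. Glud1, glutamate dehydrogenase, and Got2, the mitochondrial aspartate aminotransferase, were among the 4 measured genes of this group, whose log2 fold changes ran from -0.14 to 0.21. Gpt, alanine aminotransferase, was the lowest at -0.14 (SE 0.12). Got1, the cytosolic aspartate aminotransferase, read 12.11, 12.25 and 12.17 in the CREB-H arrays, against 12.44, 12.48 and 10.98 in the GFP arrays. The highest 2 and the lowest of its values were all GFP arrays. The log2 fold change of 0.21 (SE 0.39) on all arrays was -0.29 without GFP replicate 3.

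Proline breakdown held the other member that was lower without overlap and had an unadjusted p under 0.05. Prodh2 oxidises hydroxyproline. It read 8.96, 8.92 and 8.67 in the CREB-H arrays, against 9.19, 9.29 and 9.61 in the GFP arrays. It was 1.43-fold lower with a 95% interval of 1.12 to 1.82 (log2 fold change -0.51, SE 0.15, adjusted p = 0.647). Replicate 3 of CREB-H minus that of GFP gave -0.94, and the 4 arrays with no Y-linked signal gave -0.30. Prodh, proline dehydrogenase, read 9.03, 8.99 and 8.90 in the CREB-H arrays, against 9.53, 9.36 and 8.80 in the GFP arrays. GFP replicate 3 was its lowest array, and the log2 fold change of -0.26 (SE 0.19) was -0.47 without it. Prodh was singled out after its values were seen. Aldh4a1, the dehydrogenase of the following step in both, differed by 0.05 (SE 0.25).

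Tyrosine breakdown was level. Tat, tyrosine aminotransferase and a classic glucocorticoid-induced gene, read 13.30, 13.53 and 13.45 in the CREB-H arrays, against 13.49, 13.56 and 12.87 in the GFP arrays. Its lowest array was GFP replicate 3, and the log2 fold change of 0.12 (SE 0.20) was -0.10 without it. Hpd, Hgd and Fah, which carry the ring to fumarate and acetoacetate, ran from -0.03, in Fah, to 0.05 in log2 fold change. In histidine breakdown the ends of the range were Uroc1, urocanate hydratase, at -0.22 (SE 0.17) and Amdhd1, the imidazolonepropionase, at 0.16 (SE 0.31). Amdhd1 read 9.83, 10.11 and 10.10 in the CREB-H arrays, against 9.65, 9.33 and 10.58 in the GFP arrays. GFP replicate 3 was here the highest array, and the log2 fold change was 0.53 without it. Hal, which removes the amino group of histidine, and Ftcd, which passes its formimino group to folate, lay between these ends.

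In the methionine cycle, Mat1a makes S-adenosylmethionine, Gnmt spends it on glycine, and Ahcy splits the product S-adenosylhomocysteine. Ahcy read 12.45, 11.21 and 12.68 in the CREB-H arrays, against 12.73, 12.84 and 12.50 in the GFP arrays. CREB-H replicate 2 alone was far below the others. The log2 fold change of -0.58 (SE 0.37) was -0.13 without that array, and the dimmer probe set of Ahcy differed by 0.39 (SE 0.15), in the opposite direction. The 5 genes ran down to Ahcy from Bhmt, betaine-homocysteine methyltransferase, at 0.21 (SE 0.22), and none was without overlap. Bhmt was dim, at 5.86 to 6.71, where the array medians were 4.98 to 5.01. Its neighbour in function Bhmt2 lay between.

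Csad, which makes hypotaurine from cysteine sulfinate, had the largest difference of the 55 members and the widest error. It read 7.56, 8.76 and 8.98 in the CREB-H arrays, against 8.96, 8.87 and 10.70 in the GFP arrays. GFP replicate 3 was the highest and CREB-H replicate 1 the lowest, while the other 4 arrays lay together. The log2 fold change was -1.08 (SE 0.57, adjusted p = 0.801), -0.48 without GFP replicate 3 and -0.75 among the 4 arrays without Y-linked signal. Cdo1, the cysteine dioxygenase of the step before, differed by -0.01 (SE 0.11).

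Glycine and one-carbon enzymes ran from Gldc, the decarboxylase of the glycine cleavage system, at -0.26 (SE 0.28), to Amt, its aminomethyltransferase, at 0.22 (SE 0.17). Gcsh, the carrier protein of the same system, Shmt1 and Dmgdh lay between. Gldc read 8.69, 8.98 and 9.71 in the CREB-H arrays, against 9.36, 9.67 and 9.14 in the GFP arrays, so that a CREB-H array was both the lowest and the highest. Agxt, which turns glyoxylate into glycine and protects against oxalate, was the only member at least 0.5 higher. It read 10.36, 9.66 and 10.35 in the CREB-H arrays, against 9.94, 9.14 and 9.57 in the GFP arrays. CREB-H replicate 2 lay below GFP replicate 1, and the ratio of CREB-H to GFP was 1.49 with a 95% interval of 0.963 to 2.31 (log2 fold change 0.58, SE 0.27, adjusted p = 0.760). Agxt2, a mitochondrial aminotransferase, differed by -0.27 (SE 0.21), and Etnppl, a phospho-lyase of phosphoethanolamine, lay between these 2.

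Branched-chain amino acid breakdown was the largest group and, on all 6 arrays, a narrow one. Its 9 members ran from -0.17 to 0.18, with 6 higher and 3 lower and a median of 0.04. Without GFP replicate 3, 4 were higher and 5 lower, with a median of -0.03. In that fit they ran from -0.33 in Bckdhb to 0.27 in Bcat2. Mccc1 was -0.26 there, against 0.00 (SE 0.25) on all arrays. Bcat2, the transaminase of the first step, was the highest at 0.18 (SE 0.22), with a dim signal of 5.89 to 6.73. Bckdha, Bckdhb and Dbt encode subunits of the branched-chain ketoacid dehydrogenase, and Ivd, Mccc1, Pcca and Pccb act below it. Mccc2, a subunit of methylcrotonyl-CoA carboxylase in leucine breakdown, was the lowest at -0.17 (SE 0.12). It read 8.75, 8.74 and 8.58 in the CREB-H arrays, against 9.02, 8.76 and 8.79 in the GFP arrays. The groups did not overlap, though CREB-H replicate 1 and GFP replicate 2 were nearly equal. Pcca, a subunit of propionyl-CoA carboxylase, differed by -0.16 (SE 0.11).

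The sign of 13 members turned when GFP replicate 3 was left out. This array was the lowest of the 6 arrays in 16 of 55 members (29.1%), against 16.8% of all probe sets, and the highest in 6 (10.9%), against 20.3%. Set against the mean of the other GFP arrays, it was lower by at least 0.5 in 9 members: Got1, Acmsd, Asl, Ass1, Mccc1, Aass, Tat, Prodh and Slc25a15. It was higher by at least 0.5 in 4: Csad, Amdhd1, Hal and Etnppl. On the same array 11 of 14 glucocorticoid- and fasting-responsive genes had their lowest signal, and the mean of that list was 7.70, against 9.31 to 9.81 on the other 5 arrays. Mt2, a metallothionein, read 7.13 there and at least 12.55 elsewhere. The glucocorticoid target Fkbp5 read 6.89 there and at least 8.10 elsewhere, and Ppargc1a, a coactivator induced in fasting, 7.77 and at least 8.94. Of the 10 Kupffer cell and macrophage markers, 9 also had their lowest signal on GFP replicate 3. Lists of sex-biased liver genes followed the Y-linked signal in both groups. The male-biased list averaged 9.54 in CREB-H replicate 3, 10.92 in GFP replicate 3 and 6.67 to 7.74 on the other 4 arrays. In the fit with a term for Y-linked signal, 7 members had an unadjusted p under 0.05, against 5 in the main fit, and 0 passed. Beyond that fit and the other fits given in this report, the part of these differences between arrays in the members' values was not tested.

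Without GFP replicate 3, 40 of 55 members were lower with CREB-H, against 31 with it, and the median was -0.12, against a median of -0.01 over all probe sets in the same fit. No member passed there either (lowest adjusted p 0.566). At an unadjusted p under 0.05 there were 7 lower members in that fit (12.7% of 55, against 3.98% of all probe sets), which were Afmid, Kmo, Kynu, Prodh, Prodh2, Slc25a15 and Got1, and 1 higher, Amdhd1 (against 3.65%). Among the 8 urea cycle members 7 were lower, with a median of -0.10. Between the 2 arrays with Y-linked signal, GFP replicate 3 is the GFP array, and the median of the members was 0.15, against -0.11 among the other 4 arrays.

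**Figure D3:**
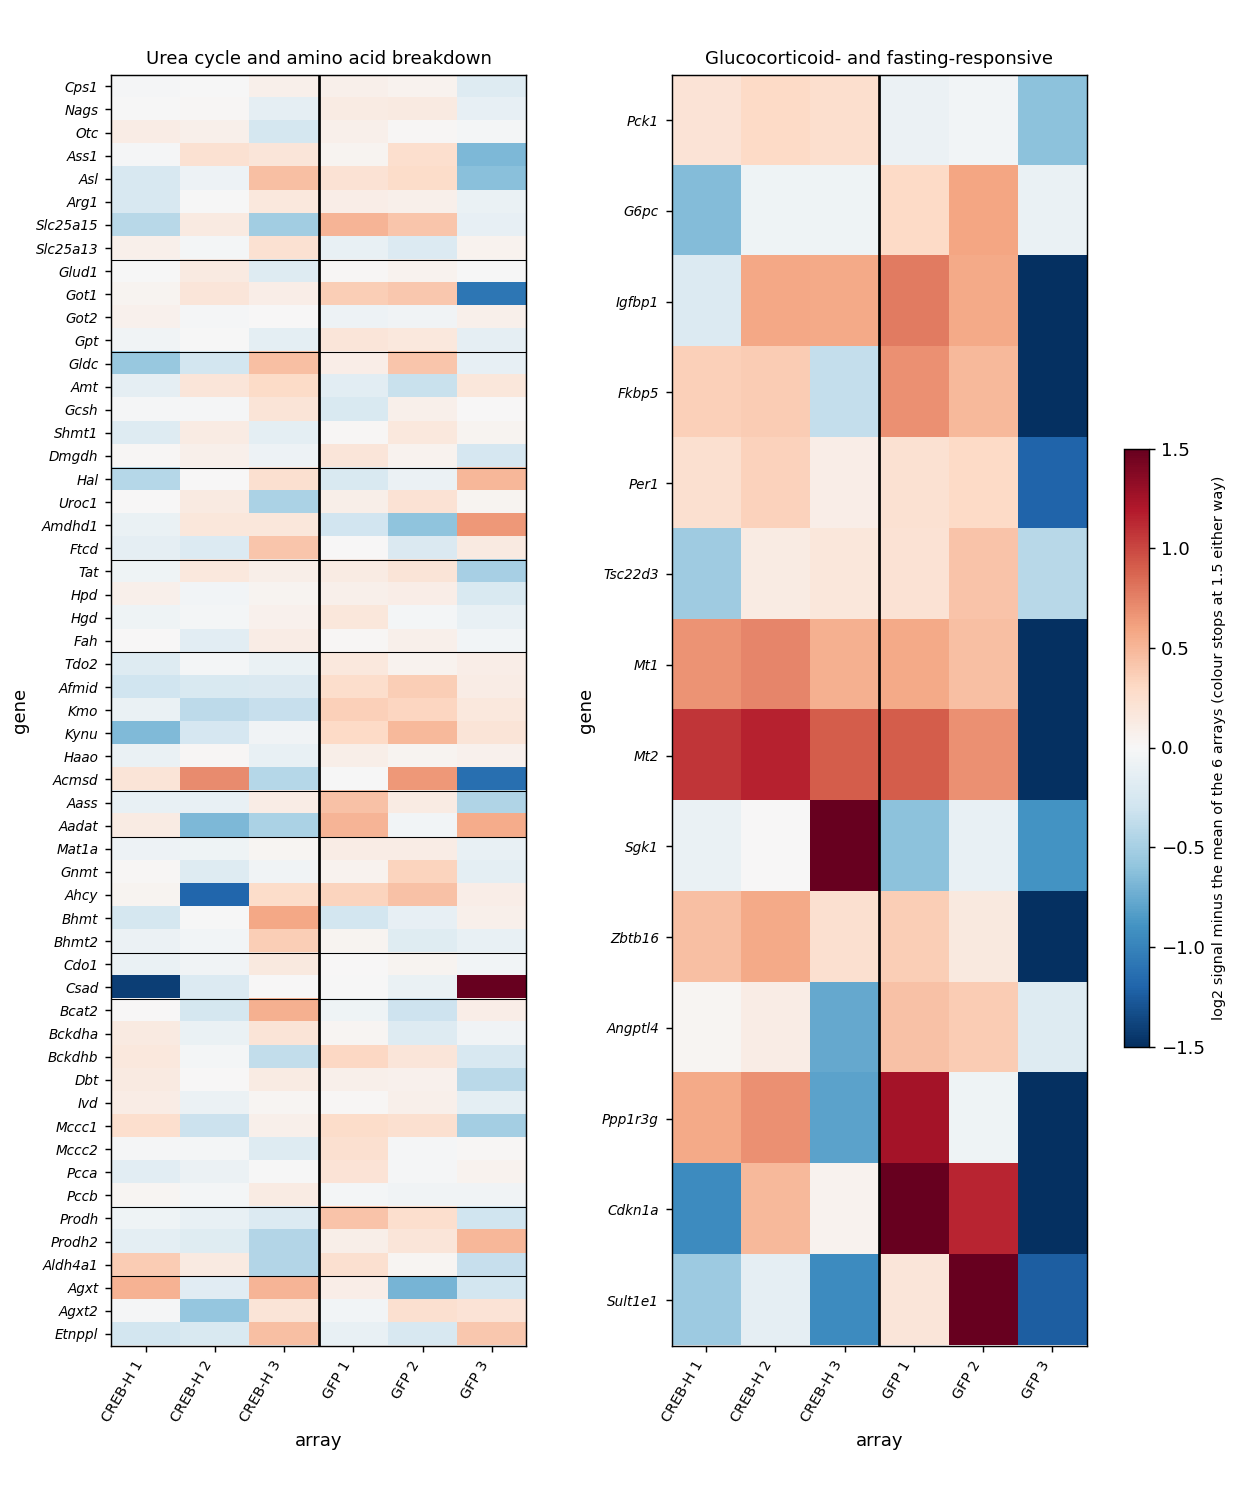
Log2 signal of each gene minus its mean over the 6 arrays (colour, red above and blue below), for the 55 members (left, lines between amino acid groups) and 14 glucocorticoid- and fasting-responsive genes (right), with CREB-H arrays left of GFP arrays. GFP replicate 3 is blue in Ass1, Asl, Got1, Tat and Acmsd and in most genes on the right, while Afmid, Kmo and Kynu are blue in the CREB-H arrays.

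Other genes of the same pathways, from lists chosen along with the members, did not pass either. In the list of other amino acid breakdown enzymes 22 of 36 measured genes were higher and 14 lower (median log2 fold change 0.02). At an unadjusted p under 0.05 there were 2, or 5.56%, against 6.89% of all probe sets, which is near the background. Hykk, which phosphorylates hydroxylysine, read 11.02, 10.42 and 11.57 in the CREB-H arrays, against 9.12, 9.78 and 10.32 in the GFP arrays. The groups did not overlap, and the log2 fold change was 1.26 (SE 0.38, adjusted p = 0.647). Mpst, a sulfurtransferase of cysteine breakdown, differed by -0.28 (SE 0.11, adjusted p = 0.712), also without overlap.

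Among genes of nitrogen transport and capture 10 of 20 were higher (median -0.01), and 3 had an unadjusted p under 0.05 (15.0%, against 6.89% of all probe sets). There were 5 genes higher without overlap (25%, against 5.23%), Slc7a2, Slc25a2, Slc25a12, Slc38a4 and Slc14a1, and 0 lower (against 7.1%). Slc7a2, a carrier of arginine and other cationic amino acids, read 11.87, 11.75 and 11.90 in the CREB-H arrays, against 11.67, 11.51 and 11.24 in the GFP arrays. It was higher without overlap, with a log2 fold change of 0.37 (SE 0.14, adjusted p = 0.693). Slc25a2, a further ornithine carrier, differed by 0.24 (SE 0.10) near the median of the arrays. Rhbg, an ammonia channel of the pericentral hepatocytes, read 7.20, 7.14 and 6.71 in the CREB-H arrays, against 7.75, 7.69 and 7.18 in the GFP arrays. The groups overlapped, and the log2 fold change was -0.53 (SE 0.20, adjusted p = 0.706). Glul, the glutamine synthetase that captures ammonia in the same cells, differed by -0.09 (SE 0.13).

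Of 15 measured regulators 10 were higher (median 0.15, and -0.05 without GFP replicate 3), and 2 had an unadjusted p under 0.05 (13.3%, against 6.89% of all probe sets). Ppara, a nuclear receptor that controls fatty acid oxidation and in mouse liver also lowers many genes of amino acid breakdown, read 10.04, 9.73 and 10.12 in the CREB-H arrays, against 9.21, 9.12 and 9.68 in the GFP arrays. The log2 fold change was 0.63 (SE 0.19, adjusted p = 0.647). Cebpa, a transcription factor needed for urea cycle genes in the mouse, read 10.20, 9.70 and 9.67 in the CREB-H arrays, against 9.18, 9.22 and 9.67 in the GFP arrays. Its log2 fold change was 0.50 (SE 0.20, adjusted p = 0.715), with GFP replicate 3 level with CREB-H replicate 3. Hnf4a differed by 0.03 (SE 0.15) and the glucocorticoid receptor gene Nr3c1 by -0.03 (SE 0.14). The part of these regulators in the members' values was not tested.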

How the data were processed

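Total RNA from 6 livers was amplified to biotin-labelled cDNA fragments (per the labels' protocols) and hybridised, 1 array per liver. The log2 signals, 1 per probe set and array, were deposited by the authors, who, per the submitters' processing notes, used the Transcriptome Analysis Console; its version, normalization and filters are not stated there. That the scale is log2 follows from the range of 1.42 to 13.9. Scanner files were not used here, so background and detection could not be examined.

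The main test was limma's moderated test (version 3.58.1, run in R 4.3.3) with group as the single term, on all 41345 probe sets without further normalization, two-sided, with Benjamini-Hochberg adjustment and a threshold of 0.05. An SE and a 95% interval are those of the moderated log2 fold change. The model was tested on simulated data, where it missed most of the smallest changes that had been added. Probe sets were named from the platform annotation held by GEO; all 55 Entrez IDs and symbols matched RefSeq (GRCm38.p6). Replicates are described as biological, and 3 arrays per group limit the precision.

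The members and lists were chosen with earlier results of these data known. Members were named with values if they were core urea cycle genes, the ends of an amino acid group, among the 12 with the lowest unadjusted p, different by at least 0.5 or without overlap between groups. Alternatives were quantile normalization, median centring, leaving out the dimmest 25% of probe sets, limma-trend with robust fitting, leaving out each array, blocking on replicate number, adding a term for arrays whose Y-linked genes (Kdm5d, Eif2s3y, Uty) average above 5, keeping the 4 arrays below that, and averaging all probe sets of a gene.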

Additional observations from a re-analysis of the deposited data

How the results depend on the processing

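No member passed under any of the 14 alternatives run (lowest adjusted p 0.393), while the whole table's 2 calls were 3 when a gene's probe sets were averaged, 1 with the Y-linked term, 0 with the replicate number as a block, 0 on the 4 arrays lacking Y-linked signal and 0 to 2 with 1 array left out. The 5 members with an unadjusted p under 0.05 were 8 with the replicate block, 8 on the arrays lacking Y-linked signal and 5 to 8 with 1 array left out. Same-numbered arrays deviated together with correlations of 0.08, 0.13 and 0.33, and CREB-H replicate 1 correlated best with GFP replicate 2 (0.12), so the numbers were not taken to pair the samples. The members' median of -0.04 was -0.11 on the 4 arrays lacking Y-linked signal, 0.15 between the 2 arrays with it (chosen after seeing the data) and -0.12 to -0.0197 with 1 array left out. The 5 tryptophan genes lower without overlap, a count chosen after seeing the data, were 4 under quantile normalization and median centring. The count was 5 with any array left out, but leaving out an array cannot make separated groups overlap, so it could not have fallen.

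Of the 35 members named by the rule (Prodh not included), 20 kept their sign in every alternative and 15 turned it in at least 1. Among the 4 arrays without Y-linked signal the sign turned in Cps1 (-0.0769), Otc (0.0456), Ass1 (-0.0434), Asl (-0.40), Got1 (-0.28) and Tat (-0.11). After centring, Cdo1 was 0.0091. With 1 array left out, Cps1 ran from -0.0471 to 0.0860, Otc from -0.12 to 0.0696, Ass1 from -0.0186 to 0.44, Asl from -0.20 to 0.25, Arg1 from -0.15 to 0.0494 and Got1 from -0.29 to 0.46. Amdhd1 ran from -0.10 to 0.53, Tat from -0.10 to 0.25, Fah from -0.0936 to 0.0417, Acmsd from -0.17 to 0.72, Aass from -0.32 to 0.13 and Bhmt from -0.0287 to 0.39. Cdo1 ran from -0.0812 to 0.0388, Bcat2 from -0.0440 to 0.36 and Aldh4a1 from -0.13 to 0.28. Over all 55, 47 moved by over 1.5 times or turned sign with 1 array left out. Beyond the values given with the genes for GFP replicate 3 and CREB-H replicate 2, the cause was not tested.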
